A study of Homo sapiens with 9 samples.

Results

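The SOX11 rescue was compared with wild-type cells in Z138, an established line of mantle cell lymphoma cells. Z138 cells of genotype WT were set against cells of genotype SOX11KO+SOX11Rescue, in which the SOX11 gene had been knocked out and SOX11 had then been returned. The 3 rescue and 3 wild-type libraries were 6 of the 9 RNA-seq libraries of the study. The other 3 were from cells of genotype SOX11KO, which carry the knockout alone, and their values are given beside the others because the rescue carries that knockout too. Libraries were paired by replicate number, which the labels also give as a batch. All cells grew in the same medium with fetal bovine serum, and no treatment is given. The labels name neither the vector or promoter that drives SOX11 in the rescue nor whether the edited lines are single clones. A difference between rescue and wild type can therefore accompany the higher level of SOX11 or the history of the edited line, and these cannot be told apart here. The labels also do not say that replicates were separate cultures, so p-values measure only the spread between these libraries.

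SOX11 is a transcription factor of the SOXC group with a high-mobility-group domain that binds DNA in the minor groove. It is active in the developing nervous system, is silent in normal B cells, and is switched on in most mantle cell lymphomas, which are B cell cancers driven by a translocation that raises cyclin D1. In these lymphomas SOX11 has been linked to the B cell factor PAX5, to a block of late B cell differentiation, and to genes of migration, adhesion and vessel growth.

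The labels were checked on SOX11 (chromosome 2, 5692667 to 5701385, plus strand in GENCODE 29 on GRCh38, as for all gene positions below, ENSG00000176887.7). Its normalised counts were 3800.4, 3845 and 3003 in the wild-type libraries of batches 1, 2 and 3, 901, 1335 and 862 in the knockout and 12818, 13849 and 12715 in the rescue. A normalised count is a read count adjusted for sequencing depth, and library values below are in the same batch order. The 3 rescue libraries thus lay above every wild-type library, and the 3 knockout libraries below. The rescue mean was 3.7-fold the wild-type mean, a difference of 1.70 ± 0.069 (SE, n = 3 against 3) on the deposited log2 scale with an adjusted p of 5.75e-07 by limma. The exact two-sided permutation p was 0.1, the smallest that 3 against 3 allows. Reads over the whole gene do not separate the edited transcript from the one returned.

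Each library held an estimated 30758700 to 40838200 reads. Of 16586 genes in the table, 11542 reached at least 1 CPM (counts scaled to a common library total) in at least 3 of the 9 libraries and were tested. A gene high in 1 group alone could therefore pass this filter. At an adjusted p under 0.05, 930 genes (8.06% of those tested) differed between rescue and wild type, 493 higher (4.27%) and 437 lower (3.79%) in the rescue. When batch was left out of the fit this fell to 470 (4.07%), 265 higher (2.3%) and 205 lower (1.78%). Without rescue replicate 2 the count was 392, without rescue replicate 3 it was 503, without rescue replicate 1 it was 607, and without wild-type replicate 1 or 2 it was 617 or 614. Rescue and wild-type libraries did not overlap for 816 of the 930 genes, and for 20.8% of all genes tested, in 10.3% with the rescue above and in 10.4% with the rescue below. All 930 had the same sign in the 3 batches, as had 43.1% of all genes tested. Most differences were small, with a median of 1.47-fold among the higher and 1.36-fold among the lower genes. At least 2-fold were 127 of the higher genes (1.1% of those tested) and 79 of the lower genes (0.684%). The same fit called 21.5% of genes between knockout and wild type and 31.2% between rescue and knockout, comparisons that share these libraries.

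**Figure D1:**
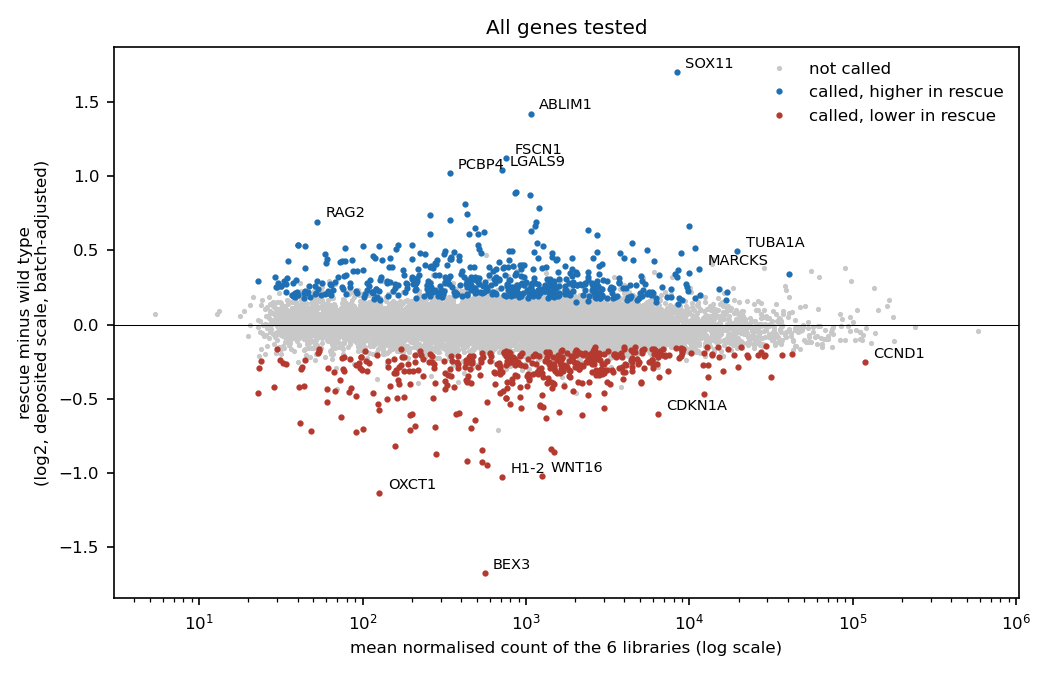
Difference between rescue and wild type for each of the 11542 genes tested. The x axis is the mean normalised count of the 6 libraries on a log scale, the y axis is the batch-adjusted difference on the deposited log2 scale, and each point is a gene, blue where called higher in the rescue, red where called lower and grey where not called. SOX11 lies highest at 1.70 and BEX3 lowest at -1.67, and called genes occur across the range of abundance.

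The largest rises by fold were genes close to silent in wild type. RAG2, one of the pair of recombinases that cut antigen receptor genes in developing lymphocytes, had normalised counts of 2.58, 0 and 0 in wild type, then 0, 0 and 0 in knockout and 141, 62.3 and 112 in rescue cells (adjusted p = 5.21e-05, limma). The wild-type libraries held 3 reads between them, and the rescue had 107 times as many per unit of depth, with a 95% interval for counting error of 36.3 to 522. Its neighbour on chromosome 11 and partner in recombination, RAG1, was under the filter and untested. RAG1 was added to the text after its values were seen: 3.11, 1.52 and 3.58 in wild-type, 2.29, 9.88 and 19.3 in knockout and 18.1, 45.6 and 47.4 in rescue libraries. The rescue libraries of batches 2 and 3 lay above every knockout and wild-type library for RAG1, and that of batch 1 lay below the highest knockout library. RAG1 and IFTAP are annotated on the strand opposite RAG2 and overlap it, so without strand information reads of the overlap cannot be assigned to either gene. IFTAP, also untested, was at 0 in the 6 other libraries and at 14.8, 1.34 and 2.3 in the rescue.

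TEAD2, a DNA-binding partner of the Hippo pathway effectors YAP and TAZ, had 3.78, 0 and 4.91 in wild type, then 0.824, 0.867 and 1.65 in knockout and 88.4, 69.4 and 76.2 in rescue cells, a 26.9-fold rise (adjusted p = 7.79e-05, limma). GNG2, a G protein gamma subunit, had 0.437, 4.2 and 2.52 in wild-type, 7.22, 2.66 and 14.7 in knockout and 60.4, 94.5 and 78.3 in rescue libraries, 32.6-fold (adjusted p = 0.000206). All 3 rescue libraries exceeded all 6 others for RAG2, TEAD2 and GNG2. CACHD1, a membrane protein related to calcium channel subunits, was at 0, 0 and 0 in the knockout, 3.58, 4.38 and 3.09 in wild type and 68.9, 104 and 81.8 in the rescue, 23.1-fold above wild type. RAG2, TEAD2, GNG2 and CACHD1 reached the filter of 1 CPM in the rescue libraries alone, so they were tested only because of the group where they are high. Rescue and wild-type libraries that do not overlap were also a condition for naming them, so neither is separate support for a rise. The promoters of the 3 genes that led by fold are given below from RefSeq on GRCh38.p14, since these transcripts were close to silent in wild type. Each runs from 250 bases before to 50 after the start and is read along the gene. Capitals mark ACAAAG or ACAATG, letters that hold the core bound by SOX factors, on either strand. A match is a description and not a binding site.
RAG2 (chr11:36598187-36598486, minus strand): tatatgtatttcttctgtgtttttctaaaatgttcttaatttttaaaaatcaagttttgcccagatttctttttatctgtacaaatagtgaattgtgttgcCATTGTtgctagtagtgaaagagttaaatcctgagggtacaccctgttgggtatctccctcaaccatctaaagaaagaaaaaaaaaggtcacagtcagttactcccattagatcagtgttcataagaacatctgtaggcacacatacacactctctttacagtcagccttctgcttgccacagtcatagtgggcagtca
GNG2 (chr14:51825924-51826223, plus strand): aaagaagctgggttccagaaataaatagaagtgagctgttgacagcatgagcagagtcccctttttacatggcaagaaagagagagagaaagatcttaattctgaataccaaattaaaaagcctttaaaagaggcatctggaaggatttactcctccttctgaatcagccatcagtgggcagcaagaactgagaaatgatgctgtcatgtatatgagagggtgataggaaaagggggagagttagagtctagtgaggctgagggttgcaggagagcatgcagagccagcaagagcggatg
TEAD2 (chr19:49362367-49362666, minus strand): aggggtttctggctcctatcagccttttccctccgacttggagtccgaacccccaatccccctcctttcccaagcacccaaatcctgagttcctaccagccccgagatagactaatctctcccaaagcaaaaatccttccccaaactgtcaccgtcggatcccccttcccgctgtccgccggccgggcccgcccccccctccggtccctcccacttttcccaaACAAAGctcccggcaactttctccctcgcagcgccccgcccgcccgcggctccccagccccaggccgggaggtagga
In RAG2 the letters are ACAATG on the opposite strand, 149 bases before the start, and in TEAD2 they are ACAAAG 27 bases before it. GNG2 held neither in this window.

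Among genes already expressed in wild type, PCBP4, an RNA-binding protein of the poly(C)-binding family, had 85.1, 95.8 and 73.5 in wild type, then 27.1, 27.2 and 16.3 in knockout and 676, 536 and 581 in rescue cells, 7.05-fold above wild type (adjusted p = 2.37e-06, limma; chromosome 3, 51957454 to 51974016, minus strand). Its call held in all 21 alternative fits, which changed the scaling, filter or prior, dropped batch, or left out a library or a batch. LGALS9, the secreted lectin galectin-9, had 274, 288 and 288 in wild-type, 428, 457 and 508 in knockout and 1128, 1217 and 1063 in rescue libraries. It rose 4.01-fold (adjusted p = 2.37e-06) and was the 1 called of 6 tested galectin genes, against 8.06% of all genes tested. The 3 groups did not overlap for either gene, but PCBP4 was lowest in the knockout while LGALS9 was lowest in wild type. CD9, a tetraspanin of B cell and other membranes, had wild-type values of 542, 514 and 670.3, knockout values of 489, 495 and 634 and rescue values of 1416, 1466 and 1736, so the knockout lay at the level of wild type and the rescue 2.68-fold above it (adjusted p = 2.37e-06).

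RTN4RL1, a relative of the Nogo receptor that limits axon growth, had 19.8, 8.43 and 10.9 in wild type, then 199.5, 204 and 231 in knockout and 92.2, 105 and 115 in rescue cells, 7.95-fold above wild type (adjusted p = 0.000239, limma). MYO6, a myosin that walks toward the minus end of actin, had 19.2, 26.2 and 15.2 (wild type), 15.2, 8.55 and 9.85 (knockout) and 131, 132 and 146 (rescue) (6.75-fold, adjusted p = 0.000102). The knockout was highest for RTN4RL1 and lay at or below wild type for MYO6. MYO6 passed the filter through the rescue libraries alone. ATP1B1, a subunit of the sodium pump, was at 74.7, 75.6 and 75.6 in the rescue against 17.8, 18.1 and 2.86 in wild type (5.83-fold).

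HRK and CASP4, which act in cell death, were higher and GSDMD lower. HRK, a BH3-only activator of apoptosis, rose 4.24-fold from 33.1 ± 8.39 to 140.1 ± 11.8 (mean ± SD, n = 3), with 8.35 ± 4.56 in the knockout. CASP4, an inflammatory caspase, had 16.9, 15.9 and 16.6 in wild-type, 63.3, 84.7 and 74.7 in knockout and 99.9, 128 and 86.1 in rescue libraries, 6.36-fold higher (adjusted p = 0.000286, limma). Both edited groups lay above wild type without overlap. GSDMD, the pore-forming gasdermin that inflammatory caspases cleave, went the other way, 5.41-fold lower with 101, 112 and 128 in wild type, then 32.8, 35.2 and 42.8 in knockout and 8.83, 20.6 and 33.5 in rescue cells. TNFSF10, the death ligand TRAIL, rose 3.36-fold to 81.4 ± 3.29, and its receptor TNFRSF10B fell 1.5-fold. Of 21 tested genes of the BCL2 family and cell death list, HRK rose and BAX and BBC3 fell, against 4.27% of all genes tested that rose and 3.79% that fell, and 3 rose without wild-type replicate 1.

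**Figure D2:**
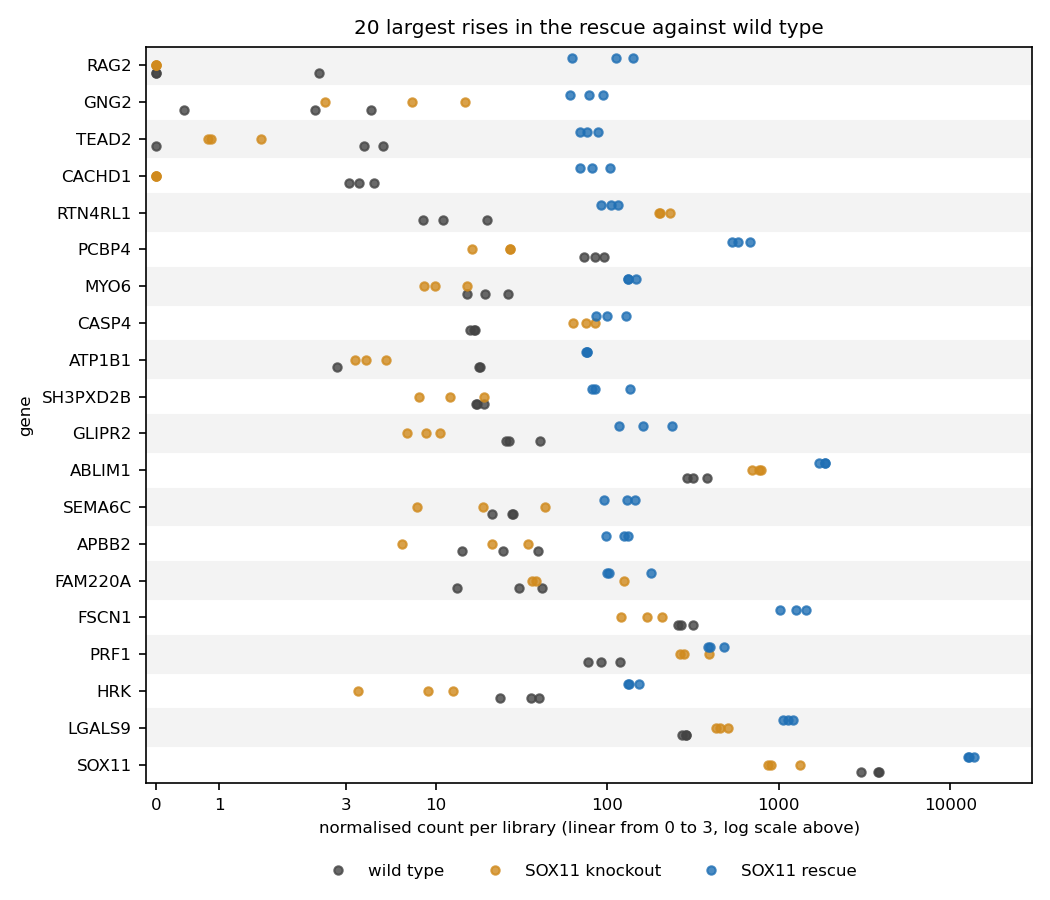
The 20 largest rises by fold among called genes whose rescue and wild-type libraries do not overlap. Each row is a gene, each point is 1 library (grey wild type, orange knockout, blue rescue), and the x axis is the normalised count, linear from 0 to 3 and on a log scale above. Blue points lie to the right of grey points in every row, while the orange points lie below, between or above them.

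The largest falls were genes that stayed off after SOX11 was returned. OXCT1, the enzyme that activates ketone bodies for use as fuel (chromosome 5, 41730065 to 41870519, minus strand), had 263, 239.8 and 257 in wild-type, 0, 1.35 and 8.85 in knockout and 0, 0 and 0 in rescue libraries. With 3 reads in each library taken as the lowest detectable level, the rescue was at least 82.8-fold lower (adjusted p = 1.62e-06, limma). CRMP1, a microtubule regulator of growing neurons, had 91.3, 90.1 and 109.5 in wild type and 0 in every knockout and rescue library, at least 31.7-fold lower (adjusted p = 5.77e-06). MYO3A, an actin motor with a kinase domain, had 90.2, 90.7 and 67.8 in wild type and likewise 0 in the other 6, at least 27.1-fold lower (adjusted p = 9.6e-06). Across the 6 edited libraries no value of these 3 genes exceeded 8.85, so they passed the filter through the wild-type libraries alone. Their RefSeq promoters are given because the transcripts are lost in both edited groups, with the same letters in capitals.
OXCT1 (chr5:41870376-41870675, minus strand): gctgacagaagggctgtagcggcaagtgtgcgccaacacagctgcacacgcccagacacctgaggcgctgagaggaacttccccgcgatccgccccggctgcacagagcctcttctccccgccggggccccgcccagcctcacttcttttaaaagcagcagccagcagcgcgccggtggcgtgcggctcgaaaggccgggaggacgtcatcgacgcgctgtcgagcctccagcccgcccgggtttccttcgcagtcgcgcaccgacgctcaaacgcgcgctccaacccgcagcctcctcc
CRMP1 (chr4:5893037-5893336, minus strand): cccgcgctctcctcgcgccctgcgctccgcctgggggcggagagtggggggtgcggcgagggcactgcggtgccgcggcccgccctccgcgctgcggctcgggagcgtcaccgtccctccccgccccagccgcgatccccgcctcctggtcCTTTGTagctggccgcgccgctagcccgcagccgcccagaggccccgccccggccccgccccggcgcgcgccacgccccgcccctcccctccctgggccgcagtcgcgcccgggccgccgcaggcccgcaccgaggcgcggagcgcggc
MYO3A (chr10:25933979-25934278, plus strand): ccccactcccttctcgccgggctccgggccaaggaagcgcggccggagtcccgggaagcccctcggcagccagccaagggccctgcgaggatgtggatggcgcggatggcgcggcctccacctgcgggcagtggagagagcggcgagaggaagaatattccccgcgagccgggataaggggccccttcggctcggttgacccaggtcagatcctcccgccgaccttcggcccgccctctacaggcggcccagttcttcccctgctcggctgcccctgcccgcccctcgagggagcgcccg
CRMP1 held ACAAAG on the opposite strand, 99 bases before the start, and OXCT1 and MYO3A held neither. These windows were rich in G and C, at 68.7% in OXCT1, 83.7% in CRMP1 and 72.7% in MYO3A, against 36.7% in RAG2, 44.3% in GNG2 and 64.0% in TEAD2.

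The same letters were counted over all genes. ACAATG was present in 52 of 376 higher genes with a promoter in the RefSeq table (13.83%), in 16 of 340 lower genes (4.706%) and in 550 of 9116 of all genes tested (6.033%). ACAAAG was present in 13.03%, 10.59% and 10.34%. The share over all 27305 promoters in the table was 10.97% for ACAATG and 16% for ACAAAG, on either strand. These shares were not tested, and base composition, which moves with such counts, was not matched.

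BEX3, a small adaptor of neurotrophin receptor signalling on the X chromosome (chromosome X, 103376340 to 103378077, plus strand), showed the largest fall on the log2 scale. It had 918, 1156 and 1126 in wild type, then 3.89, 5.29 and 3.75 in knockout and 33, 55.4 and 55.6 in rescue cells, 22.2-fold lower (adjusted p = 9.48e-08, limma). The rescue libraries lay above the knockout yet far under wild type. Of 7 tested genes in the list of BEX and TCEAL relatives 4 fell and 0 rose, against 3.79% and 4.27% of all genes tested. The falls were BEX3, TCEAL4 (8.09-fold), TCEAL1 (4.04-fold) and TCEA3 (10.3-fold), which is a transcription elongation factor outside the X-linked cluster. TCEAL4 had 80.1, 86.6 and 65.7 in wild-type, 3.89, 2.87 and 0.937 in knockout and 10.2, 8.96 and 9.53 in rescue libraries. It passed the filter through the wild-type libraries alone. TCEA3 had wild-type values of 239.7, 292 and 328, knockout values of 56.7, 57.7 and 71.7 and rescue values of 35.1, 21.1 and 27.1, so its rescue libraries lay below the knockout as well. TCEAL1 lost its call without batch 3 (adjusted p = 0.0535).

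Other large falls included SYT11, a synaptotagmin of vesicle traffic, with 127, 149 and 140.2 in wild type, then 1.77, 2.11 and 3.41 in knockout and 7.33, 8.27 and 14.1 in rescue cells (14-fold, adjusted p = 1.26e-05, limma). SIRPA, the phagocyte receptor for CD47, had 438, 566 and 428 (wild type), 296, 254 and 256 (knockout) and 78.8, 103 and 64.9 (rescue) (5.81-fold, adjusted p = 1.02e-05), an order in which the knockout lay between the other groups. NRSN2, a neuronal vesicle protein, had wild-type values of 667, 804 and 661, knockout values of 208, 165 and 221 and rescue values of 139, 183 and 156 (4.46-fold). For SYT11 and NRSN2 both edited groups lay under wild type without overlap. Rescue and wild-type libraries that do not overlap were a condition for naming both among the largest falls. SYT11 passed the filter through the wild-type libraries alone. The metallothionein MT1E fell 15.7-fold and the bradykinin receptor BDKRB2 4.68-fold, as did BACE2, a relative of beta-secretase (4.54-fold). MT1E counts are uncertain because metallothionein genes are close copies.

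**Figure D3:**
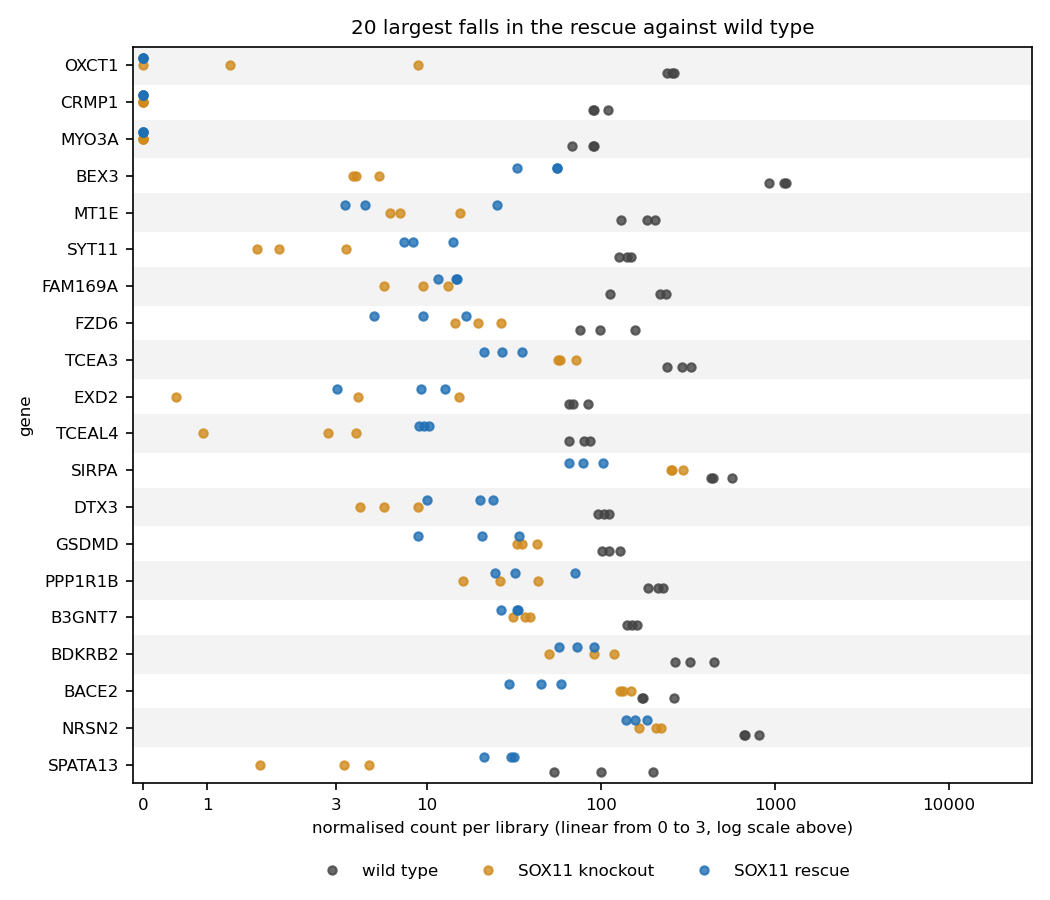
The 20 largest falls by fold among called genes whose rescue and wild-type libraries do not overlap, with genes at 0 in the rescue first. Each row is a gene, each point is 1 library (grey wild type, orange knockout, blue rescue), and the x axis is the normalised count, linear from 0 to 3 and on a log scale above. OXCT1, CRMP1 and MYO3A are at 0 in the 3 rescue libraries, and grey points lie to the right of blue points in every row.

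Actin regulators moved in both directions, more of them up. The gene lists below, such as actin regulators, hold textbook members, and members outside the rule for named genes were named after their values were seen. Of 64 tested actin-binding and actin-bundling genes 14 rose and 5 fell, against 4.27% and 3.79% of all genes tested, with a list median of 0.026 on the log2 scale. ABLIM1, an actin-binding LIM protein (chromosome 10, 114431113 to 114685003, minus strand), had 380.0, 293 and 315 in wild-type, 701, 789.6 and 771 in knockout and 1856, 1722 and 1859.9 in rescue libraries, 5.5-fold higher (adjusted p = 5.75e-07, limma). FSCN1, the fascin that bundles actin in filopodia, had 267, 315 and 258 (wild type), 120.3, 208 and 171 (knockout) and 1011, 1444 and 1256 (rescue), 4.42-fold higher (adjusted p = 2.37e-06). The rescue exceeded both other groups for each, though ABLIM1 was higher and FSCN1 lower in the knockout than in wild type. SYNPO2L, a synaptopodin relative, had wild-type values of 382, 589 and 355, knockout values of 156, 245 and 139 and rescue values of 1137, 1682 and 1095 (2.95-fold), and GMFG, which debranches actin networks, had 139, 171 and 229.9 (wild type), 449.8, 519.8 and 548 (knockout) and 599, 695 and 699 (rescue) (3.7-fold). Library 2 of each group was the highest of its group for SYNPO2L.

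Smaller actin rises included the membrane-linked actin regulators MARCKSL1 (8928, 8992 and 8267 in wild type, 12680, 13633 and 12177 in the rescue, 1.47-fold) and MARCKS (1.31-fold), the actin-capping regulator CRACD (1.81-fold) and the coronins CORO2A (1.75-fold) and CORO2B (1.58-fold). Lower in the rescue were the tropomyosin TPM2 (1.6-fold), the profilin PFN2 (1.78-fold), synaptopodin, SYNPO (1.52-fold), and the smooth muscle actin ACTA2 (1.97-fold). MARCKS lost its call without rescue replicate 2 (adjusted p = 0.0977) or 3, or without batch 3. PFN2 lost its call without batch 3 (adjusted p = 0.0558), and ACTA2 without wild-type replicate 3, rescue replicate 2 or 3, or batch 2 or 3 (up to 0.133). The list held 8 rises and 3 falls without rescue replicate 2, and 9 and 3 without rescue replicate 3, wild-type replicate 3 or batch 2. It held 8 and 2 without batch 3. In all 21 alternatives 8 rises and 2 falls kept their calls, ABLIM1, FSCN1, SYNPO2L, GMFG, MARCKSL1, CRACD, CORO2A and CORO2B above and SYNPO and TPM2 below.

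Microtubule genes were divided. Of 27 tested tubulins and microtubule proteins 6 rose and 4 fell, against 4.27% and 3.79% of all genes tested (3 and 3 without batch in the fit, 2 rises without rescue replicate 2 and 3 without rescue replicate 3 or wild-type replicate 2, and 2 or 3 without any 1 batch). The alpha-tubulin of developing neurons, TUBA1A, had 14947, 17210 and 16231 in wild type, then 6296, 6705 and 7450.4 in knockout and 20732, 23844 and 24686 in rescue cells, 1.43-fold higher (adjusted p = 0.000155, limma). TUBA4A, another alpha-tubulin, had wild-type values of 939, 1048 and 945, knockout values of 624, 738 and 757 and rescue values of 515, 513 and 566, 1.84-fold lower (adjusted p = 0.00027). Both sets of rescue libraries stood clear of wild type, in opposite directions. Reads of alpha-tubulin paralogs can be shared, which makes their split uncertain. STMN1, the stathmin that destabilises microtubules, rose 1.27-fold from 35975 ± 2247 to 45801 ± 1366 and TUBB2B, a neuronal beta-tubulin, 1.27-fold. STMN1 lost its call when batch 1 was left out (adjusted p = 0.0503), and TUBB2B without wild-type replicate 2, rescue replicate 2 or 3, or batch 2 or 3 (up to 0.0985).

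Neuronal transcripts moved in both directions. Of 13 tested neuronal genes 5 rose and 2 fell, against 4.27% and 3.79% of all genes tested, with a list median of 0.084. GNG4, a G protein gamma subunit of neurons, had 425, 494 and 382 in wild-type, 274, 273 and 261 in knockout and 1207, 1306 and 1307 in rescue libraries (2.93-fold, adjusted p = 5.77e-06, limma). MLLT11, a cofactor that promotes neuronal differentiation, had 1877, 1382 and 1985 (wild type), 345, 327 and 415 (knockout) and 3058, 3122 and 3034 (rescue) (1.76-fold, adjusted p = 0.000418). In both the knockout was lowest and the rescue passed wild type. TMEFF1, which sits in the membrane of neurons, rose 2.4-fold to 722 ± 102 from 300.4 ± 71.9, with 10.1 ± 10.6 in the knockout. The dendritic microtubule protein MAP2 rose 1.53-fold, but its libraries overlapped (251, 704 and 452 in wild type, 483, 957 and 712 in the rescue), its adjusted p was 0.339 without batch in the fit, and its call was lost in 9 of the 21 alternatives. The 2 falls were CRMP1 and NRSN2. The rises numbered 3 without rescue replicate 2 or 3 or batch 2 or 3, and GNG4, MLLT11 and TMEFF1 kept their calls in all 21 alternatives, as did the 2 falls where tested.

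Of 21 tested semaphorin, plexin, ephrin and axon guidance genes 6 rose and 1, PLXNA1, fell, against 4.27% and 3.79% of all genes tested. None of them kept its call in all 21 alternatives. The rises were SLIT1, a guidance ligand (1.43-fold, 637, 658 and 666 in wild type and 987, 880.4 and 938 in the rescue), EFNB2 (2.6-fold), EFNB1 (1.61-fold), SEMA4D (1.34-fold), its receptor PLXNB1 (1.36-fold) and EFNA4 (1.32-fold). This count ranged from 1 to 6 rises over the alternatives and was 1 without batch 3, 2 without batch 1 or 2 or rescue replicate 3 and 3 without wild-type replicate 2 or 3 or rescue replicate 1 or 2. SEMA6C, a further semaphorin named among the largest rises, had 28.2, 27.9 and 21.2 in wild type, then 43.4, 7.75 and 18.7 in knockout and 130.4, 95.1 and 145 in rescue cells (4.79-fold, adjusted p = 0.00161, limma). SEMA6C passed the filter only with the rescue libraries, where it is high. Rescue and wild-type libraries that do not overlap were a condition for naming it.

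**Figure D4:**
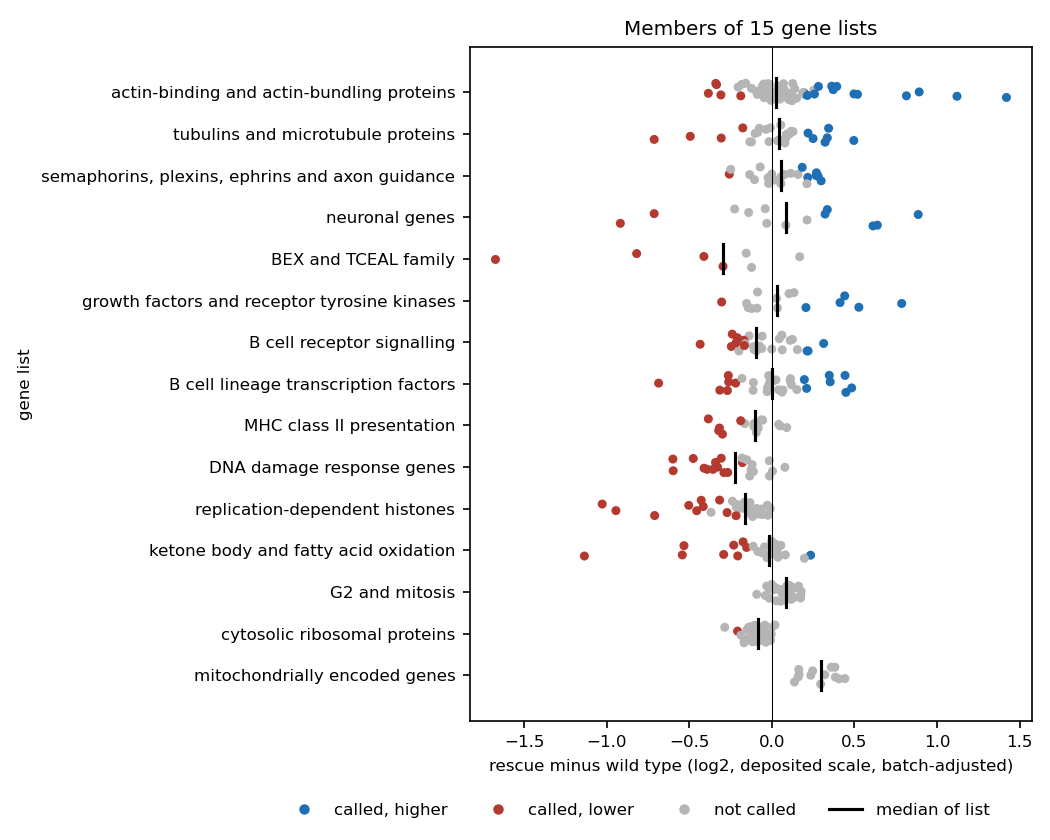
Members of 15 gene lists. Each point is a tested gene, placed by its batch-adjusted difference between rescue and wild type on the deposited log2 scale, blue where called higher, red where called lower and grey where not called, and the black bar is the list median. The DNA damage response, histone, BEX and TCEAL, MHC class II and cytosolic ribosomal protein lists hold called genes on the lower side alone. The 13 mitochondrially encoded genes all lie above 0 with none called.

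Genes of the DNA damage response, which act in growth arrest, cell death and repair, were lower in the rescue. Of 22 tested genes in this list 12 fell and 0 rose, against 3.79% of all genes tested that fell, and the list median was -0.22. CDKN1A, the p21 inhibitor of cyclin-dependent kinases (chromosome 6, 36676460 to 36687339, plus strand), had 7902, 7139.8 and 8437 in wild-type, 6945, 6589.9 and 7940.3 in knockout and 5600.4, 4100.0 and 5118 in rescue libraries (1.58-fold lower, adjusted p = 0.000213, limma). PHLDA3, a repressor of AKT, had wild-type values of 546, 615 and 531, knockout values of 497, 406 and 633 and rescue values of 223, 199 and 222 (2.63-fold, adjusted p = 0.000612). For both genes the knockout overlapped wild type and the 3 rescue libraries lay below all 6 others.

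Members with roles in death, splicing and repair were lower too. ZMAT3, an RNA-binding regulator of splicing, had 1603, 1540.1 and 1715 in wild type, then 1370.1, 1324 and 1429 in knockout and 1141, 1126 and 1112 in rescue cells (1.44-fold). BBC3, the apoptosis activator PUMA, had 674, 634 and 636 (wild type), 516, 490.3 and 591 (knockout) and 406, 361 and 444 (rescue) (1.61-fold). The DNA damage sensor DDB2 fell 1.49-fold, the mitochondrial reductase FDXR 1.66-fold, the death receptor TNFRSF10B 1.5-fold, SESN1 1.45-fold, BAX 1.3-fold, the nuclease AEN 1.26-fold, MDM2 1.25-fold and XPC 1.18-fold. MDM2, a ubiquitin ligase, had 6839, 7108 and 5909 in wild-type, 5226, 6109 and 4621 in knockout and 5232, 5977 and 4650.2 in rescue libraries, so its groups overlapped, and its adjusted p without batch in the fit was 0.168. XPC likewise was not called without batch (adjusted p = 0.186).

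BTG2, a growth inhibitor in the list, had 1762, 1064 and 1276 in wild type and 1667, 1389 and 1326 in the rescue and was not called (95% interval -0.09 to 0.25 on the log2 scale). The list median was -0.198 in batch 1, -0.234 in batch 2 and -0.272 in batch 3. When batch was not fitted 10 members fell, and without batch 3 the number was 7. Calls for CDKN1A, PHLDA3, ZMAT3, BBC3, DDB2 and TNFRSF10B held in all 21 alternatives. XPC lost its call in 11, SESN1 in 6, and FDXR, BAX and AEN without batch 3, with adjusted p of 0.0644, 0.0505 and 0.0516.

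**Figure D5:**
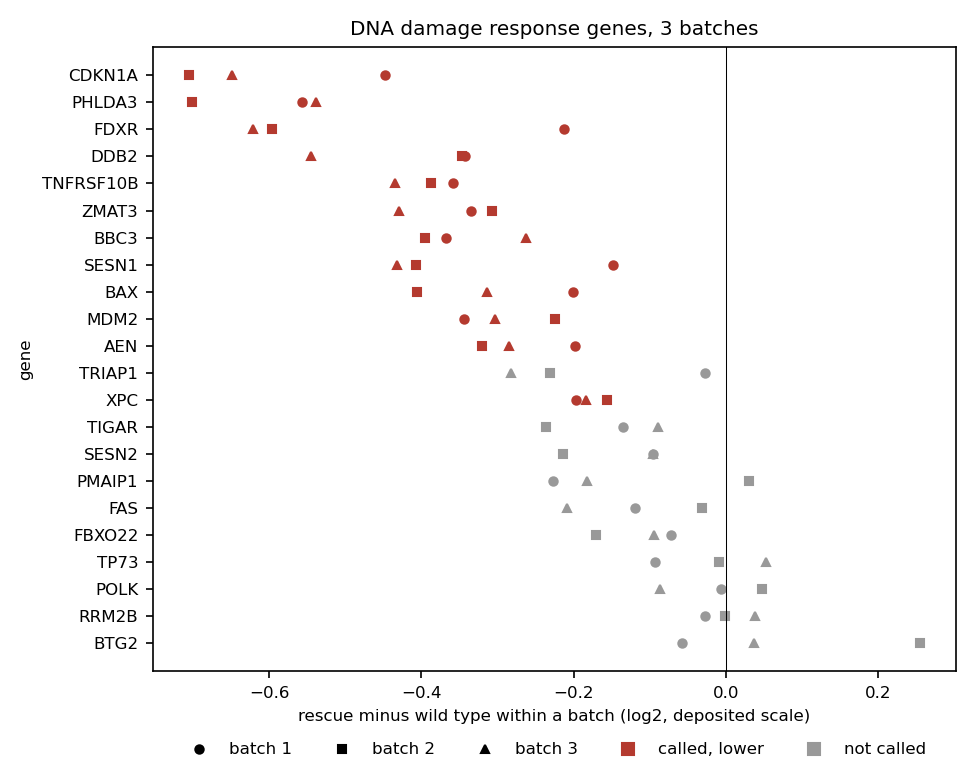
Rescue minus wild type within each batch for the 22 tested genes of the DNA damage response list. The x axis is the difference on the deposited log2 scale, each row is a gene, the shape gives the batch, and red marks the 12 genes called lower. All 3 points of every red gene lie below 0, and BTG2 lies on both sides of 0.

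The lists of D cyclins and of S phase genes held falls and no rises. Of 18 tested D cyclins, CDK4/6 and inhibitors 3 fell (CDKN1A, CDK6 and CCND1) and 0 rose, against 3.79% of all genes tested that fell. CCND1, the cyclin D1 raised by the defining translocation of mantle cell lymphoma, had 128380, 136860 and 121220 in wild type, then 118030, 126860 and 119310 in knockout and 106490, 106410 and 110910 in rescue cells (1.19-fold lower, adjusted p = 0.014, limma). Rescue and wild-type libraries did not overlap, but the call was lost without batch 1 or 2, rescue replicate 1 or 2, or wild-type replicate 1, with adjusted p up to 0.15. CDK6 had wild-type values of 522, 344 and 252, knockout values of 1055, 800.2 and 851 and rescue values of 248, 162 and 129 (2.07-fold, adjusted p = 0.0024, and 0.0964 without batch in the fit). Of 37 S phase genes 4 fell and 0 rose (CDC6, TYMS, POLD1 and LIG1, none past 1.22-fold), and 0 were called without batch in the fit, without wild-type replicate 1 or without rescue replicate 2. With 1 other library left out the count was 1 (wild-type replicate 2 or rescue replicate 3) or 2 (rescue replicate 1 or knockout replicate 1). Of 32 G2 and mitosis genes 0 were called, although 26 had a positive difference. Without wild-type replicate 3 that list had 5 calls, and 1 without rescue replicate 3.

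MYC, the driver of growth and ribosome production, fell 1.28-fold, with 36755, 35492 and 34294 in wild-type, 37988, 41592 and 39582 in knockout and 29859, 26161 and 26899 in rescue libraries (adjusted p = 0.00337, limma). Its relative MYCN, almost silent in wild type (13.9, 15.5 and 8.78), rose 3.98-fold to 41.5, 54.8 and 55.7 and was at 0, 0.969 and 0 in the knockout. Rescue and wild type did not overlap for either gene, whose directions were opposite. MYCN passed the filter through the rescue libraries alone, and lost its call without batch 3 (adjusted p = 0.065).

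Replication-dependent histone genes, transcribed in S phase and mostly without a poly(A) tail, were lower in the rescue. Of 32 tested members 10 fell and 0 rose, against 3.79% and 4.27% of all genes tested. The 32 differences were all negative, with a list median of -0.166. H1-2 had 729, 1278 and 1442 in wild type, then 193, 242 and 289 in knockout and 297, 295 and 254 in rescue cells (4.08-fold, adjusted p = 0.000227, limma). H2BC12 had 626, 1067 and 1061 (wild type), 255, 329 and 351 (knockout) and 213, 259.8 and 215 (rescue) (4-fold), and H2AC6 wild-type values of 184, 190.2 and 295, knockout values of 43.4, 59.1 and 74.4 and rescue values of 65.6, 48.3 and 63.5 (3.77-fold). Wild-type library 1 was lowest of its group for each of these, and both edited groups lay under wild type. Histone paralogs share reads. The labels name both a poly(A) and a ribosomal depletion kit without saying which library had which, and the part of library preparation in this difference was not tested. The number called was 6 without rescue replicate 2 or 3, wild-type replicate 2, or batch 2 or 3, and 7 without batch in the fit. H1-2, H2BC12, H2AC6, H2BC11 and H4C9 kept their calls in every alternative that tested them. The differences of mitochondrially encoded genes were positive in 13 of 13 members with a median of 0.295 (0.455, 0.241 and 0.189 in the 3 batches), yet 0 were called. Without knockout replicate 3 there were 9 calls, without wild-type replicate 3 there were 5, without batch 3 there were 7, without knockout replicate 1 or 2 there were 2 or 1, and with only the 6 libraries in the fit there were 8. Cytosolic ribosomal protein genes lay slightly lower, with 1 of 62 differences positive and a median of -0.083. That median was -0.038 in batch 1, -0.186 in batch 2 and -0.014 in batch 3, so the shift was largest in batch 2.

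Ketone body and fatty acid oxidation held 8 falls among 28 tested genes, against 3.79% of all genes tested that fell, with a list median of -0.018. Besides OXCT1, ACAT1, the thiolase that acts next in ketone use, had 1375, 1644 and 1635 in wild-type, 1215, 1184 and 1268 in knockout and 837, 871 and 905 in rescue libraries (1.78-fold lower, adjusted p = 0.00013, limma). CPT1A, which brings fatty acids into mitochondria, had 1179, 976 and 972 (wild type), 1383, 1459 and 1527 (knockout) and 619, 554 and 467 (rescue) (1.91-fold lower, adjusted p = 0.0006). In ACAT1 the knockout lay between the other groups, and in CPT1A it lay above wild type. ECI2 (1.36-fold), PPARA (1.64-fold), PPARGC1B (1.33-fold), ECI1 (1.21-fold) and ACADVL (1.13-fold) also fell, each with a call lost in 3 to 18 of the alternatives, and BDH2 rose 1.29-fold with a call lost in 6. The falls numbered 4 without batch in the fit, 3 without rescue replicate 2, 4 without rescue replicate 3 or wild-type replicate 2, and 5 without wild-type replicate 1 or 3, rescue replicate 1, or knockout replicate 1 or 3. Of 32 glycolysis and hypoxia genes 5 fell and 0 rose, against 3.79% of all genes tested that fell. Among the falls were the phosphofructokinases PFKP (1.25-fold) and PFKM (1.22-fold). PFKM was not called without batch in the fit (adjusted p = 0.0753). That list held 2 falls then or without wild-type replicate 2, 1 without wild-type replicate 1 or rescue replicate 1 or 2, and 8 without wild-type replicate 3, and none of its 5 calls held in all alternatives.

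The markers of the labelled cell type were present. MS4A1, the B cell antigen CD20, had 18541, 20183 and 23423 in wild type and 19834, 22737 and 22157 in the rescue, and CD79A, a signalling chain of the B cell receptor, had 8725, 9776 and 8433 in wild type and 8164, 8258 and 7807 in the rescue. Neither was called, with 95% intervals of -0.06 to 0.18 and -0.23 to -0.05 on the log2 scale. CD5, which mantle cell lymphomas usually carry, was at or below 0.0295 CPM and HLA-DRA at or below 0.688 CPM in these 6 libraries, both under the filter. Summed over 13 B cell and mantle cell lymphoma markers the level was 5109 to 5555 CPM in wild type and 4869 to 5084 in the rescue. CCND1 alone made up 3482 to 3823 CPM of this sum in wild type and 3041 to 3192 in the rescue. SOX11, also in the sum, was at 86.26 to 108.7 CPM in wild type and 365.9 to 395.8 in the rescue.

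Of 11 tested B cell markers 3 rose (SOX11, CD22 and PAX5) and 3 fell (EBF1, CCND1 and CD79B), with SOX11 chosen by the design. Over all genes tested 4.27% rose and 3.79% fell. PAX5, the factor that fixes B cell identity, had wild-type values of 9409, 14293 and 8795, knockout values of 6667, 9609 and 6146 and rescue values of 10830, 14921 and 11336 (1.14-fold, adjusted p = 0.0485, limma). Wild-type and rescue libraries of PAX5 overlapped and library 2 was highest in each group. EBF1, its partner in early B cells, fell 1.25-fold and CD79B 1.21-fold. Without batch in the fit CD22 (adjusted p = 0.254), PAX5 (0.67), EBF1 (0.179) and CD79B (0.0876) were not called. PAX5 and CD22 were each lost in 14 of the 21 alternatives, CD79B in 8 and EBF1 in 4. SOX11 was the 1 rise without wild-type replicate 3, rescue replicate 1 or 3 or any 1 knockout replicate, and with only the 6 libraries in the fit. There was 1 fall without wild-type replicate 1 or rescue replicate 2 or 3. Uncalled markers were CD37 (95% interval 0.07 to 0.32), BLNK (-0.18 to 0.03) and BANK1 (-0.18 to 0.06).

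B cell receptor signalling held 3 rises and 7 falls among 28 tested genes, against 4.27% and 3.79% of all genes tested. Without batch in the fit these were 0 rises and 1 fall, against 2.3% and 1.78% of all genes. That fall was PRKCB, a protein kinase C that acts downstream of the receptor, with 394, 513 and 389.6 in wild-type, 507, 565 and 474 in knockout and 195, 220.2 and 194 in rescue libraries (2.13-fold lower, adjusted p = 0.000371, limma). PRKCB lost its call in none of the 21 alternatives. The rises fell to 0 without rescue replicate 1 or 2 or wild-type replicate 3, to 1 without wild-type replicate 1 or 2 or rescue replicate 3, and the falls to 1 without rescue replicate 2, 2 without rescue replicate 1 or 3, and 3 without any 1 wild-type replicate. LCK, a Src kinase of T cells that some B cell lymphomas express, had wild-type values of 709, 809 and 685, knockout values of 640.4, 732 and 714 and rescue values of 1481, 1604 and 1575 (2.11-fold higher, adjusted p = 1.29e-05).

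Among 32 tested B cell lineage transcription factors 7 rose and 6 fell (3 and 2 without batch in the fit), against 4.27% and 3.79% of all genes tested (2.3% and 1.78% without batch). FOXO1, required in early B cells and germinal centres, had 809, 1104 and 817 in wild type, then 461, 637 and 509 in knockout and 1275, 1707 and 1407 in rescue cells (1.61-fold, adjusted p = 0.000237, limma). ETS1, which restrains plasma cell differentiation, had 8631, 5718 and 7492 (wild type), 6791, 6364 and 7231 (knockout) and 11192, 9057 and 10894 (rescue) (1.43-fold, adjusted p = 0.00203). The largest fall was BCL11A, a factor of early lymphoid cells, with wild-type values of 461, 342 and 506, knockout values of 99.4, 65.2 and 132 and rescue values of 123, 132 and 90.9 (3.79-fold, adjusted p = 0.000271). Both edited groups lay far under wild type for BCL11A, whereas FOXO1 was lowest in the knockout. XBP1, the driver of secretion in plasma cells, fell 1.31-fold, and BACH2 (1.41-fold) and ID2 (1.55-fold) rose with groups that overlapped and adjusted p of 0.326 and 0.277 without batch. Falls in the list were 3 without rescue replicate 2 or 3.

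ELL2, an elongation factor of plasma cells, had 187, 148 and 285 in wild-type, 1873, 1579.8 and 1828 in knockout and 569, 723 and 684 in rescue libraries, 3.19-fold above wild type (adjusted p = 0.000227, limma). It lay between wild type and knockout without overlap. Of 22 tested plasma cell and secretory genes 4 fell (2 without batch in the fit or without rescue replicate 2), XBP1 among them, and ELL2 was the 1 rise, with 2 rises without knockout replicate 1 or 2. Over all genes tested 3.79% fell and 4.27% rose. In MHC class II presentation 5 of 16 tested genes fell and 0 rose, against 3.79% of all genes tested that fell. The falls were CIITA, the master activator (1.31-fold, 4129, 4271 and 4869 in wild type and 3423, 3282 and 3459 in the rescue), the thiol reductase IFI30 (1.37-fold), HLA-DPB1 (1.5-fold), HLA-DQB1 (1.38-fold) and HLA-DQA1 (1.19-fold), of which CIITA kept its call in all 21 alternatives. HLA genes differ between people and from the reference, and reads are shared among them, so their levels are uncertain. Without batch in the fit 2 genes of the list fell, without rescue replicate 1 or 2 the number was 3, and the adjusted p was 0.0797 for IFI30 and 0.356 for HLA-DQB1.

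Of 18 tested genes linked to SOX11 in mantle cell lymphoma by earlier work 4 rose (TEAD2, STMN1, PLXNB1 and PAX5) and 4 fell (NOTCH1, CD24, CD70 and CCND1), against 4.27% and 3.79% of all genes tested. The list median was 0.0096, and negative with median centring. Rises were 2 without wild-type replicate 3 or rescue replicate 3, and falls were 2 without rescue replicate 2 or without batch in the fit. No expected direction was attached to its members. CD24, a glycoprotein of B cells and their precursors, had 1909.9, 1642 and 1671 in wild type, then 7.05, 5.19 and 4.29 in knockout and 1051, 1224 and 1244 in rescue cells, so the rescue stood between and 1.48-fold below wild type (adjusted p = 0.00368, limma). Processed copies of CD24 nearly identical to it make its counts uncertain. NOTCH1, the receptor mutated in some mantle cell lymphomas, had 4659, 2661 and 3854 (wild type), 3230.2, 2348 and 3151 (knockout) and 2729, 1729 and 2384 (rescue) (1.63-fold lower, adjusted p = 0.000206). Library 2 of each group was lowest, rescue and wild-type libraries overlapped, and without batch in the fit NOTCH1 was not called (adjusted p = 0.105).

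Other Notch genes were divided, with 3 rises and 4 falls among 26 tested, against 4.27% and 3.79% of all genes tested. DTX1, a regulator and target of Notch, rose 1.31-fold (8057, 6226 and 7936 in wild type, 9984, 9141 and 10067 in the rescue), as did the coactivators MAML2 (2.15-fold) and MAML3 (4.61-fold), whose calls were lost in 7 and 6 of the alternatives. DTX3 fell 5.75-fold, the target HEY2 1.45-fold and the ligand JAG1 1.52-fold, a call lost in 7. The rises numbered 1 without wild-type replicate 2 or rescue replicate 2. Of 32 Wnt pathway genes 4 fell and 1 rose (3 and 0 without batch in the fit), against 3.79% and 4.27% of all genes tested. WNT10B, one of the falls, was not called without batch (adjusted p = 0.411). TLE1, a corepressor, rose 1.47-fold with a call lost in 7 of the alternatives. WNT16, a ligand, had 1835, 2109.5 and 1705 in wild-type, 729, 814 and 764 in knockout and 619, 589 and 656 in rescue libraries (3.03-fold, adjusted p = 5.77e-06, limma), and the receptor FZD6 had wild-type values of 75.6, 156 and 98.9, knockout values of 19.6, 26.6 and 14.5 and rescue values of 9.44, 16.7 and 4.92 (10.6-fold). Both edited groups lay under wild type for each, and FZD6 passed the filter through the wild-type libraries alone. AXIN2, a target that reports Wnt activity, had 295, 345 and 249 (wild type), 139, 132 and 123 (knockout) and 254, 307 and 205 (rescue) and was not called (95% interval -0.20 to 0.03). Of 14 Hippo genes TEAD2 rose and TEAD4, a related factor, fell 2.73-fold with wild-type values of 615, 563 and 449.9, knockout values of 247, 207 and 223 and rescue values of 219, 178 and 199.

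Receptor tyrosine kinases and growth factors rose in 5 of 15 tested cases and fell in 1, against 4.27% and 3.79% of all genes tested. TIE1, an orphan receptor of endothelium, had 686, 747 and 718 in wild type, then 1172, 1288 and 1148 in knockout and 1676, 1655 and 1686 in rescue cells (2.33-fold, adjusted p = 5.77e-06, limma). FLT1, a receptor for vascular endothelial growth factor, had 183, 263 and 234 (wild type), 92.5, 98.2 and 108 (knockout) and 387, 552 and 476 (rescue) (2.08-fold, adjusted p = 0.000626), and the growth factor midkine, MDK, wild-type values of 929.7, 915 and 930.2, knockout values of 50.2, 59.3 and 47.3 and rescue values of 1585, 1559 and 1669.7 (1.73-fold, adjusted p = 0.000102). In all 3 the rescue was highest, while the knockout lay above wild type for TIE1 and below it for FLT1 and MDK. FGFR1 rose 2.1-fold (lost without batch 1, adjusted p = 0.055) and MERTK 1.78-fold, and the insulin receptor INSR fell 1.3-fold, the last pair with calls lost in 6 alternatives each. S1PR4, through which lymphocytes sense sphingosine-1-phosphate, rose 3.57-fold, with 60.3, 59 and 90.8 in wild type and 278, 155 and 317 in the rescue. The oxysterol receptor GPR183, which guides B cells, fell 1.79-fold, with 1896, 2413 and 1793 in wild type and 1091, 1302 and 1020.2 in the rescue (adjusted p = 0.000102).

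Among 36 tested interferon-induced genes 6 rose and 3 fell, against 4.27% and 3.79% of all genes tested. Of the 6 rises 5 were APOBEC3 cytidine deaminases, which edit viral DNA, and the sixth, DDX58, lost its call in 17 of the alternatives. APOBEC3G had 643, 801 and 794 in wild-type, 1784, 1877 and 2040.5 in knockout and 1319, 1645 and 1652 in rescue libraries (2.06-fold, adjusted p = 2.05e-05, limma), and APOBEC3F (3.04-fold), APOBEC3D (2.53-fold), APOBEC3B (1.45-fold, lost in 5 alternatives) and APOBEC3C (1.44-fold) rose too. These neighbouring paralogs on chromosome 22 share reads, so they are not 5 separate observations. MX1, an antiviral GTPase, had 1739, 1724 and 1718 (wild type), 1415, 1736 and 1484 (knockout) and 805, 1012 and 897 (rescue) (1.91-fold lower, adjusted p = 7.33e-05). The knockout lay above both other groups in APOBEC3G but overlapped wild type in MX1. TRIM22 (1.41-fold, lost in 5 alternatives) and IRF1 (1.19-fold) fell, and IRF1 was not called without batch in the fit (adjusted p = 0.197). Falls were 1 without wild-type replicate 2 or rescue replicate 3.

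Markers of other cell types were given beside these groups. Markers of T and NK cells rose in 5 of 10 tested cases (PRF1, LCK, CD4, CD3E and TRAC) and fell in 0, against 4.27% and 3.79% of all genes tested. Their summed level over 16 markers in the table was 63.4 to 66.8 CPM in wild type, 92.9 to 100 in the knockout and 101.5 to 110 in the rescue. PRF1, the pore-former perforin, had 91.8, 76.6 and 119 in wild type, then 281, 266 and 394 in knockout and 388, 397 and 481 in rescue cells (4.41-fold, adjusted p = 9.6e-06, limma). CD4 had wild-type values of 186, 179 and 174, knockout values of 818, 888 and 831 and rescue values of 331, 387 and 369.5 (2.02-fold). Among the defining markers CD3G was at 8.17 to 12.4 CPM and CD247 at 18.8 to 22.4 CPM in all 6 libraries, neither of them called. CD3E was at 1.03 to 1.09 CPM in wild type and 1.98 to 2.55 in the rescue, while CD3D, CD8A, CD8B and GNLY were below 0.4 CPM in all 6 libraries. The number called was 3 without any 1 wild-type replicate or without rescue replicate 2 or 3, and LCK, PRF1 and CD4 kept their calls in all 21 alternatives. CD3E lost its call in 8 alternatives and TRAC in 12. TRAC libraries overlapped, at 0.123 to 1.53 CPM in wild type and 0.784 to 2.71 in the rescue. Of 3 tested endothelial markers TIE1 and FLT1 rose and PECAM1 fell 1.69-fold (lost in 9 alternatives, 0.0797 without batch in the fit). The summed level of the 7 endothelial markers in the table was 31.8 to 37.2 CPM in wild type and 64.9 to 68.8 in the rescue, and the endothelial claudin CLDN5 was at 0 in the wild-type libraries and at most 0.0907 CPM in the rescue. TIE1 made up 19.6 to 20.86 CPM of the endothelial sum in wild type and 47.29 to 48.52 in the rescue. FLT1 made up 5.239 to 7.339 CPM in wild type and 11.11 to 15.77 in the rescue. Of 2 tested monocyte and macrophage markers SIRPA fell and CD68 was not called, and the summed level of the 9 such markers in the table was 14.7 to 18.2 CPM in wild type, 11.6 to 13.5 in the knockout and 5.37 to 6.65 in the rescue. SIRPA alone made up 12.29 to 15.81 CPM of this sum in wild type and 1.868 to 2.939 in the rescue. Below the filter, CD14 was at most 0.101 CPM, while the rescue libraries lay above wild type for LYZ (0.765 to 0.976 against 0.289 to 0.364 CPM), ITGAM (0.298 to 0.694 against 0.138 to 0.229) and CD33 (0.081 to 0.263 against 0 to 0.0743). The part of such cells in the results was not tested.

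Called genes were spread over the genome. Between 6.47% (chromosome 2) and 13.4% (chromosome 21, 112 genes tested) of genes were called per chromosome, and chromosome medians of the log2 difference ran from -0.038 (chromosome 18) to 0.017 (chromosome 15). Chromosome 12 held 44 higher and 23 lower genes, and chromosome 19 held 27 higher and 50 lower. In windows of 40 neighbouring tested genes the medians ran from -0.086, on chromosome 16 between 1419744 and 2509560 (GRCh38), to 0.092, on chromosome 12 between 22448583 and 40106089. The median of no window was therefore more than 0.1 from 0 on this scale. Calls still gathered in some windows with extreme medians, against 4.27% of all genes tested that rose and 3.79% that fell. On chromosome 19 between 17309518 and 18928633 0 of 40 rose and 8 fell, as on chromosome 6 between 24804281 and 27865798. The chromosome 6 window runs from RIPOR2 to H2BC15, a member of the histone list above. Its falls are therefore not separate from the histone falls. On chromosome 1 between 201829141 and 206496889 7 rose and 1 fell. The source of this gathering was not tested. In 4 equal bins of mean abundance 9.49%, 8.08%, 7.56% and 7.1% of genes were called from the lowest to the highest.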

How the data were processed

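RNA of Z138 cells was sequenced as 50-base reads, per the labels' protocols. The labels give the molecule as poly(A) RNA, yet name both a kit without strand marking and a stranded total RNA kit, and not which library had which. The submitters' processing notes name FastQC 0.11.9, Trimmomatic 0.40, kallisto 0.46.1, R 4.3.2, DESeq2 1.24.0 and GRCh38.p13. The deposited values are on a log2 scale with a variance-stabilising shape, although the authors' file name calls them log CPM. That transform was inverted to normalised counts, and CPM was taken as a share of each total. With 1 read set to 1, 82.0% to 98.4% of low values were whole within 0.05. Depth per library was 30758700 to 40838200 estimated reads, so precision is lowest for genes of few reads, and intervals on reads cover counting error only. The main analysis used limma 3.58.1 in R 4.3.3 on the deposited log2 values of all 9 libraries, with group and batch as terms, a mean-variance trend and Benjamini-Hochberg adjustment over the 11542 genes tested. Differences on that scale understate low genes, so folds are ratios of mean normalised counts. The labels tie the replicate number to a batch, and libraries of the same number deviated together (r of 0.187 to 0.51 for every pair). Of 16586 genes 16461 matched GENCODE 29, the source of positions. Promoters came from RefSeq GRCh38.p14.

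Named genes were SOX11, the 20 largest rises and 20 largest falls by fold among called genes whose libraries did not overlap (with a mean of 2 CPM or more in whichever group was higher), the 6 largest differences in mean each way, genes at 0 in a whole group, up to 4 called members with the smallest adjusted p of each list, and the B cell markers. Members, lists and rules were chosen with earlier results of these data known, and some list members are not reported here. Alternatives were a fit without batch, no filter, a filter at 4 CPM, log2(CPM + 1), median centring, quantile normalisation, a constant or robust prior variance, the 6 libraries alone, and fits that dropped 1 library or 1 batch at a time.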

Additional observations from a re-analysis of the deposited data

How the results depend on the processing

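SOX11 stayed called higher in all 21 alternatives, with a difference of 1.63 to 1.90 on the log2 scale. The count of called genes depended most on batch and on single libraries. Without the replicate block, which pairs libraries by batch, it fell from 930 to 470 (265 higher, 205 lower), all among the 930. Leaving out a batch gave 419 (batch 1), 429 (batch 2) or 423 (batch 3), with 240, 223 and 198 higher and 179, 206 and 225 lower. With 1 library left out the total ranged from 392 to 922, the higher genes from 202 to 496 and the lower genes from 190 to 426. Called genes numbered 617 without wild-type replicate 1 (262 lower), 614 without wild-type replicate 2 (322 higher), 607 without rescue replicate 1 (276 lower), 392 without rescue replicate 2 and 503 without rescue replicate 3 (260 higher, 243 lower). The other settings gave 801 to 965, and median centring turned the split to 457 higher and 508 lower. Of the 930 calls 185 were tested and kept in all 21 alternatives. No named gene reversed. Of the 162 called genes named by the rule besides SOX11, 41 lost their call without the block, 52 without rescue replicate 2 and at most 9 under any setting that neither left out a wild-type or rescue library or a batch nor dropped the block. CD37 was called without wild-type replicate 2. Few reads limit genes near silence, such as RAG2.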

Other observations

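Adhesion genes outside the comparisons above were divided, with 4 rises and 4 falls among 19 tested integrin and adhesion genes, against 4.27% and 3.79% of all genes tested. Of these ICAM3 alone kept its call in all 21 alternatives. ICAM3, a ligand of leukocyte integrins, had 897, 937 and 852 in wild type, then 458, 448 and 568 in knockout and 455, 525 and 520.5 in rescue cells, 1.79-fold lower (adjusted p = 0.000786, limma). Both edited groups lay below wild type for ICAM3 and overlapped each other. The integrin chain ITGB1 rose 1.21-fold and ITGA4, which pairs with it, fell 1.3-fold, each with a call lost without rescue replicate 2, batch 2 or batch 3 (adjusted p up to 0.0776 and 0.074). Without rescue replicate 2 the list held 0 rises and 1 fall, and without wild-type replicate 1 it held 2 falls.

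TNFAIP3, an inhibitor of NF-kB signalling, rose 1.42-fold, with 3554, 3647 and 3943 in wild-type, 3083, 3207 and 3471 in knockout and 5342, 4735 and 5781 in rescue libraries (adjusted p = 0.000387, limma). CHD7, a chromatin remodeller, rose 1.48-fold, with wild-type values of 2604, 3551 and 2872, knockout values of 1356, 2063 and 1805 and rescue values of 4422, 4569 and 4381 (adjusted p = 0.00221). The rescue lay above both other groups for TNFAIP3 and CHD7, and each call held in all 21 alternatives. In the list for protein folding stress and the integrated stress response 6 of 29 tested genes were lower and 0 higher, against 3.79% and 4.27% of all genes tested. Without batch in the fit 1 fell, and without wild-type replicate 1 or any 1 rescue replicate 3 fell. DDIT4, an inhibitor of mTORC1, fell 1.5-fold and the pseudokinase TRIB3 1.36-fold, with adjusted p of 0.0695 and 0.0703 when batch was not fitted.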
